A study of Mus musculus with 15 samples.

Results

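Genes of intraflagellar transport and of the cilium were followed in cultured mouse neural stem and progenitor cells with less or more of the histone acetyltransferase gene Kat6b. The members were chosen by gene symbol, from the families Ift, Bbs, Tctn, Nphp, Dnah and Rfx and from a few single genes (Foxj1, Kif3a, Kif7, Kif17, Kif19a, Arl13b, Mks1 and Cc2d2a). The choice was made with earlier results of these data known. There were 52 members among 26263 named genes, and they were split by known role into 34 primary cilium genes, 14 motile cilium genes and 4 RFX transcription factors. The split is one of usage, since intraflagellar transport, Bbs and Kif3a proteins also serve motile cilia.

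A primary cilium is a single immobile antenna on most dividing and resting cells, and it carries receptors such as those of Hedgehog signalling, which patterns the embryonic forebrain. It is built by intraflagellar transport, in which kinesin motors carry IFT-B particles to the tip and dynein motors carry IFT-A particles back, while the BBSome moves membrane proteins and the transition zone gates the base. Motile cilia, such as those of ependymal cells lining the ventricles, add dynein arms whose heavy chains drive the beat, and the transcription factor Foxj1 switches on their genes. RFX factors act on genes of both kinds of cilium through a paired promoter element, the X-box.

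The dorsal telencephalon, the future cortex, was taken at embryonic day 12.5, and its cells were kept as neurospheres, free-floating clusters fed with the growth factors EGF and FGF. Total RNA was sequenced in 15 libraries. The 4 KO_B6 libraries were Kat6b-/- on the C57BL/6 background and were set against 3 wild-type C57BL/6 libraries, WT_B6. The 6 Tg_FvB libraries carried the transgene Tg(Kat6b) on a background mixed from FVBxBALB/c, since the transgene was not viable on an inbred one, and were set against 2 wild-type libraries of that mixed background, WT_FvB. No source used here says which part of Kat6b the deleted allele lacks. The wild types of the 2 backgrounds were also compared with each other.

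Total counts per library were 39413502 to 62819028 in KO_B6, 18483747 to 31067022 in WT_B6, 12336303 to 41746720 in Tg_FvB and 19930942 to 21417513 in WT_FvB. Levels are given as CPM, counts scaled to a common library size by TMM library factors, or as RPKM where genes of different length are compared. The labels conflict in places: Tg_FvB is knockout by its sample titles and transgenic by its genotype field, and Tg_FvB replicates 5 and 6 have count columns with wild-type headers, numbered 3 and 4. The litter and embryo numbers of WT_B6 replicate 1 are those of WT_FvB replicate 2 as well. Kat6b itself stood at 60.9, 64.1, 66.0 and 62.3 CPM in KO_B6, against 85.1, 84.1 and 83.5 CPM in WT_B6. In Tg_FvB it stood at 268, 265, 266, 229, 139.6 and 289 CPM from replicate 1 to 6, against 54.4 and 51.8 CPM in WT_FvB. The groups did not overlap in either comparison, and the genotype field was followed. By edgeR the log2 fold change was 2.19 for the transgene (adjusted p 2.38e-04) and -0.41 for the knockout, which was not called (adjusted p 0.0571), and these counts cover the whole gene.

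Several libraries of one group were nearly the same. The variation beyond sampling noise between a pair, as a biological coefficient of variation, was 0.0172 to 0.0359 among the 3 WT_B6 libraries, 0.0269 for KO_B6 replicates 2 and 3, 0.0315 for the WT_FvB pair and 0.0340 to 0.0503 among Tg_FvB replicates 1 to 3. Other pairs lay at 0.115 to 0.165 in KO_B6 and 0.135 to 0.276 in Tg_FvB. By the labels, the libraries of each group come from different embryos, but the files do not show whether the near-identical ones are separate embryos or repeats of one, and every n, SD and p counts them as separate. With near-identical libraries summed, WT_B6 and WT_FvB came down to 1 sample each, and edgeR's quasi-likelihood test called none of the members in any comparison. At an unadjusted p under 0.05, that summed fit had 11 of the 51 members it tested in the knockout comparison, against 21.7% of all genes, and 1 in the transgene comparison, against 2.95%. It had 14 of 51 between the wild types, against 23.2% of all genes, and 8 for the difference of the 2 effects, against 17.6%, so these counts are near the background. At an adjusted p under 0.05 it called 5 of all genes in the knockout comparison and 0 in the others. Every call given for single genes thus holds only with the libraries counted one by one.

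Matches to the X-box are shown first because the RFX factors among the members act on cilium genes through this element. RefSeq promoters of GRCm38.p6, from 250 bases before to 50 bases after each start, were at hand for 44 of the 52 members, without Foxj1 and Kif19a, and the 11 motile cilium genes searched were all dynein heavy chains. A gene with several promoters was counted once, if any of them held the motif. They were searched on both strands for the paired motif GTNNCCNNGGNNAC, which reads the same on either strand, and for the single element GTTGCC, which can lie within it. The paired motif was found for 9 of 29 primary cilium genes (31%), for 0 of 11 dynein heavy chains and for 1 of 4 RFX genes, against 2.16% of all 27025 genes. The single element was found for 55.2% of primary cilium genes, 9.09% of dynein heavy chains and 14.1% of all genes. A forkhead motif, GTAAACA, was found for 0 of 29 primary cilium genes and 1 of 11 dynein heavy chains, against 4.05% of all genes. Below are the matches of genes that were called in the knockout comparison, with the 14 letters of the paired motif in capitals and up to 8 flanking bases in lower case, on the strand of the gene.
Ift22: ctgtcaggGTTTCCTGGGCTACtgcgcagc
Ift22: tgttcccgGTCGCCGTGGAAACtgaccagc
Ift57: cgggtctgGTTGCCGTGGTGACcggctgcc
Bbs1: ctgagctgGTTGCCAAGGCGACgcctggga
Tctn2: gattggagGTTACCATGGCTACtggtcctc
Mks1: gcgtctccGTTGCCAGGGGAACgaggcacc
Nphp4: cggtgcccGTCTCCTAGGTAACgcgccagc
Rfx2: tagagactGTAGCCGTGGAGACtg
Coordinates are those of the capitals. The Ift22 matches, at chr5:136908087-136908100 and chr5:136908117-136908130 on the plus strand, begin 63 and 33 bases before the start. The Tctn2 match (chr5:124598687-124598700, plus) begins 62 bases before it. The Ift57 match (chr16:49699207-49699220, plus) begins 87 bases before it. Those of Mks1 (chr11:87853191-87853204, plus) and Nphp4 (chr4:152477911-152477924, plus) begin 24 and 231 bases before it, and Nphp4's lies in 1 of its 3 promoters. The Bbs1 match (chr19:4906613-4906626, minus) begins at base 2 of the transcript and the Rfx2 match (chr17:56830961-56830974, minus) at base 35. Bbs4, Bbs7 and Tctn1 also held the paired motif and were not called. These are matches of letters, and binding was not measured. The genes that hold one did not move one way: Ift22, Ift57, Bbs1, Tctn2 and Rfx2 were lower in the knockout and Mks1 and Nphp4 were higher, as described next.

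The 2 kinds of cilium gene stood at very different levels in these cells. Averaged over the 15 libraries, the primary cilium genes had a median of 9.13 RPKM, and 33 of 34 exceeded 1 RPKM. The lowest of them was Kif17, a ciliary kinesin, at 0.573 RPKM, and the highest was Ift20, the IFT-B subunit that also sits at the Golgi, at 32.7 RPKM. The motile cilium genes had a median of 0.0497 RPKM. Foxj1, at 10.7 RPKM, and Kif19a, a kinesin that trims the tips of motile cilia, at 1.44 RPKM, were the only ones of the 14 to exceed 1 RPKM. All 12 dynein heavy chains lay under 0.1 RPKM, from 0.00516 to 0.0992, with 0 to 163 counts per library. The RFX factors had a median of 7.18 RPKM, and Rfx4, which is needed to form the dorsal midline of the brain, stood at 111 RPKM, above every other member.

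Dnah3, Dnah6 and Dnah12, heavy chains of the inner dynein arms, did not pass the filter on low counts and were not tested. Dnah3 summed to 17 counts over KO_B6 and 2 over WT_B6, and to 12 over Tg_FvB and 2 over WT_FvB. Dnah6 had 1 count in all KO_B6 libraries and 4 in WT_B6, and 20 in Tg_FvB and 16 in WT_FvB. Dnah12 had 15 in KO_B6 and 6 in WT_B6, and 15 in Tg_FvB and 6 in WT_FvB. The knockout libraries were the deeper ones, so these sums are not to be read as levels.

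Marker genes of several cell types were looked at. All 12 markers of dorsal telencephalic stem and progenitor cells passed the count filter. So did all 8 astrocyte markers, all 8 oligodendrocyte markers and 9 of 10 neuronal markers. Passing the count filter thus cannot tell these cell types apart. Of 10 markers of ependymal cells and choroid plexus other than Foxj1, 4 passed it, and none of these was called in the knockout comparison by edgeR. The median log2 fold change of these 4 was 0.66, opposite in sign to that of Foxj1 given below. The choroid plexus gene Ttr was at 0 in every library except for 1 count in Tg_FvB replicate 3. Summed with Foxj1, the ependymal list ran from 20.7 to 28.6 CPM in KO_B6 and from 45.3 to 47.8 CPM in WT_B6, and Foxj1 was most of that sum. Mcidas and Gmnc, which start the multiciliated fate, were at 0 in all 15 libraries.

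Loss of Kat6b went with lower RNA of Foxj1, Kif19a, the IFT-B subunit Ift46 and the BBSome subunit Bbs9, and with higher RNA of the chaperonin-like gene Bbs12, the transition zone gene Nphp4 and Rfx4. By edgeR's quasi-likelihood test, with p adjusted over 15261 genes by Benjamini and Hochberg, 8 of the 49 tested members were higher and 16 were lower in KO_B6 than in WT_B6. That is 49% of members, against 45.8% of all genes tested, so the number of calls is near the background and is not a result about cilium genes. By direction, 16.3% of members were higher, against 24.8% of all genes, and 32.7% were lower, against 20.9%. The members' median log2 fold change was -0.16, and that of all genes was 0.02. Among primary cilium genes 5 rose and 13 fell of 34 (median -0.15, range -0.85 to 1.04), and among motile cilium genes 2 rose and 2 fell of 11 tested (median -0.60, range -2.49 to 2.11). The groups did not overlap for 61.2% of members and 56.3% of all genes.

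Foxj1 (gene 15223, chr11:116330704-116335499 of GRCm38.p6, minus strand) stood at 19.0, 16.5, 16.2 and 17.3 CPM in KO_B6, against 43.4, 41.4 and 42.1 CPM in WT_B6. Every knockout library lay below every wild-type one, and the fold was 0.408. The log2 fold change was -1.29 (SE 0.084, edgeR adjusted p 1.19e-06). Kif19a (gene 286942, chr11:114764970-114791166, plus strand) stood at 2.04, 1.60, 1.48 and 2.56 CPM in KO_B6, against 11.4, 10.1 and 11.0 CPM in WT_B6. Again the groups lay far apart, with a log2 fold change of -2.49 (SE 0.253, edgeR adjusted p 9.28e-06). These 2 genes made up most of the motile class by CPM, which summed to 23.8 to 30.4 CPM in KO_B6 and 58.2 to 60.8 CPM in WT_B6. A list of 49 other motile cilium genes, taken up below, summed to 177 to 188 CPM in KO_B6 and 163 to 167 CPM in WT_B6. With near-identical libraries summed, the edgeR adjusted p was 0.0667 for Foxj1 and 0.0714 for Kif19a. In bulk RNA, fewer cells of a type and less RNA per cell cannot be told apart.

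Among the dynein heavy chains, which have the fewest counts, Dnah14 and the outer arm gene Dnah8 rose. Dnah14 stood at 1.10, 0.603, 0.617 and 0.768 CPM in KO_B6, against 0.164, 0.163 and 0.193 CPM in WT_B6, from 25 to 48 counts per library in KO_B6 and 3 to 6 in WT_B6. The groups did not overlap and the log2 fold change was 2.11 (SE 0.453, edgeR adjusted p 0.00150), though 5.59% of its exonic bases are shared with the genes Lbr and Gm23690 on the other strand. Dnah8 stood at 3.58, 2.38, 2.07 and 2.61 CPM in KO_B6, against 1.64, 1.89 and 1.26 CPM in WT_B6, a log2 fold change of 0.74 (SE 0.257, edgeR adjusted p 0.0289). Its call was lost without WT_B6 replicate 1, WT_B6 replicate 4 or KO_B6 replicate 1 (adjusted p 0.0668 to 0.157). The other 7 tested heavy chains were not called, among them Dnah9 of the outer arm at a log2 fold change of -0.90 (SE 0.383, adjusted p 0.0653). The inner arm gene Dnah2 stood at 2.17, 0.709, 0.419 and 0.976 CPM in KO_B6, against 1.42, 1.73 and 1.61 CPM in WT_B6. KO_B6 replicate 1 lay above all wild types and the other 3 lay below them, and without that replicate Dnah2 was called lower (log2 fold change -1.18, edgeR adjusted p 0.00165).

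Of the transport particles, IFT-A had 2 of 3 members lower and none higher by edgeR, and IFT-B had 5 of 11 lower and 1 higher. For IFT-B that is 54.5% called, near the 45.8% of all genes, and 3 IFT-A members are too few to set against it. Ift46 (gene 76568, chr9:44770456-44792714, plus strand), which in the alga Chlamydomonas is needed to import outer dynein arms, stood at 26.2, 24.7, 24.2 and 25.5 CPM in KO_B6, against 49.1, 42.7 and 44.0 CPM in WT_B6. The groups did not overlap, and its log2 fold change of -0.85 (SE 0.102, edgeR adjusted p 2.79e-05) was the furthest from 0 of the 14 transport particle genes. Ift52, a core subunit of IFT-B, stood at 37.8, 31.2, 32.0 and 30.4 CPM in KO_B6, against 42.6, 41.5 and 41.7 CPM in WT_B6 (log2 fold change -0.35, SE 0.0799, edgeR adjusted p 0.00231). The remaining falls were small, at log2 fold changes of -0.34 for Ift122 and -0.20 for Ift140 of IFT-A, and -0.28 for Ift172, -0.23 for Ift22 and -0.17 for Ift57 of IFT-B. Ift88, the IFT-B subunit disrupted in a mouse model of polycystic kidneys, went the other way, with 11.2, 11.2, 10.3 and 11.3 CPM in KO_B6, against 9.0, 9.32 and 9.02 CPM in WT_B6 (log2 fold change 0.27, SE 0.0852, edgeR adjusted p 0.0176). Ift20, Ift27, Ift43, Ift74, Ift80 and Ift81 were not called. The motor gene Kif3a, a subunit of the anterograde kinesin, stood at 137, 135, 135 and 151 CPM in KO_B6, against 165, 172 and 168 CPM in WT_B6 (log2 fold change -0.27, SE 0.0661, edgeR adjusted p 0.00374). Kif7, which acts on Gli factors at the ciliary tip, and Kif17 were not called. Exonic bases are shared with other genes over 7.86% of Ift57, 20.3% of Kif7 and 25.5% of the transition zone gene Tctn1, so their values are uncertain.

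The BBSome had 3 of 6 members lower and none higher by edgeR, or 50% called, near the 45.8% of all genes. Bbs9 stood at 20.3, 19.9, 20.7 and 19.7 CPM in KO_B6, against 27.7, 28.7 and 28.5 CPM in WT_B6, so that the groups were well apart (log2 fold change -0.49, SE 0.0699, edgeR adjusted p 8.07e-05). Bbs1 stood at 18.1, 20.8, 20.2 and 20.3 CPM in KO_B6, against 28.5, 26.1 and 25.2 CPM in WT_B6 (log2 fold change -0.42, SE 0.0873, edgeR adjusted p 0.00135). Bbs2 was lower by a log2 fold change of -0.31 (SE 0.0943, edgeR adjusted p 0.0142), although KO_B6 replicate 1, at 22.9 CPM, lay within the wild-type range of 22.6 to 25.0 CPM. Bbs12, whose product helps to fold BBSome subunits, moved up instead. It stood at 9.08, 9.24, 8.88 and 8.38 CPM in KO_B6, against 4.58, 4.07 and 4.32 CPM in WT_B6, with no overlap and a fold of 2.06 (log2 fold change 1.04, SE 0.190, edgeR adjusted p 4.96e-04). Bbs10, its partner in that folding complex, was not called, with 6.24 ± 1.29 CPM in KO_B6 and 7.08 ± 0.163 CPM in WT_B6 (SD, n = 4 and 3).

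**Figure D1:**
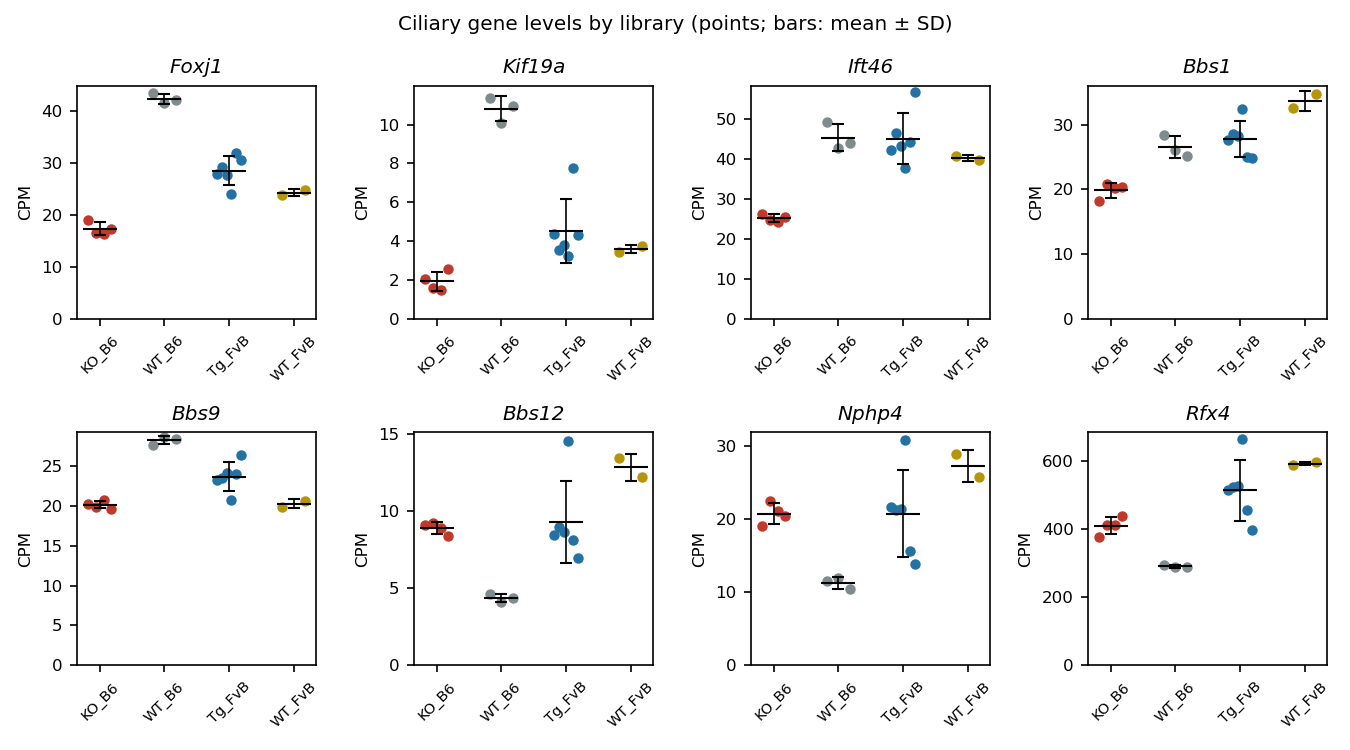
CPM in each library (points) with mean and SD (bars) for 8 members, with KO_B6, WT_B6, Tg_FvB and WT_FvB from left to right in each panel. Foxj1 lies at 16.2 to 19.0 CPM in KO_B6 and 41.4 to 43.4 CPM in WT_B6, and Bbs12 at 8.38 to 9.24 CPM in KO_B6 and 4.07 to 4.58 CPM in WT_B6.

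Transition zone genes moved both ways, 2 higher and 2 lower of 7 by edgeR, or 57.1% called, against 45.8% of all genes. Nphp4, a scaffold of the zone, stood at 19.0, 22.5, 21.1 and 20.4 CPM in KO_B6, against 11.6, 12.0 and 10.4 CPM in WT_B6 (log2 fold change 0.88, SE 0.198, edgeR adjusted p 0.00230). Mks1, mutated in Meckel syndrome in humans, was higher by a log2 fold change of 0.29 (SE 0.105, edgeR adjusted p 0.0329). Tctn2 and Cc2d2a, which belong to the same membrane complex as Mks1, were lower, Tctn2 by a log2 fold change of -0.32 (SE 0.0918, edgeR adjusted p 0.0107). Cc2d2a stood at 56.8, 58.1, 58.4 and 59.3 CPM in KO_B6, against 69.4, 67.9 and 67.4 CPM in WT_B6 (log2 fold change -0.23, SE 0.048, edgeR adjusted p 0.00128). Arl13b, the GTPase of the ciliary membrane, was not called, at 34.3 ± 3.08 CPM in KO_B6 and 31.8 ± 2.94 CPM in WT_B6 (SD, n = 4 and 3).

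Among the RFX factors, Rfx4 was higher and Rfx2, which works with Foxj1 in multiciliated cells, was lower. Rfx4 (gene 71137, chr10:84756036-84906538, plus strand) stood at 378, 413, 411 and 440.3 CPM in KO_B6, against 296, 289 and 288 CPM in WT_B6 (log2 fold change 0.50, SE 0.122, edgeR adjusted p 0.00400). Rfx2 stood at 2.80, 3.17, 2.47 and 3.10 CPM in KO_B6, against 4.31, 4.82 and 4.25 CPM in WT_B6 (log2 fold change -0.63, SE 0.152, edgeR adjusted p 0.00375). Neither pair of groups overlapped, and Rfx1 and Rfx3 were not called.

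Of the 24 calls, 15 were kept in every alternative other than the summed one: Foxj1, Kif19a, Ift46, Ift52, Ift122, Ift140, Kif3a, Bbs1, Bbs9, Bbs12, Nphp4, Cc2d2a, Dnah14, Rfx2 and Rfx4. Leaving out 1 library ended the call of Ift22 (WT_B6 replicate 2, edgeR adjusted p 0.0626) and of Bbs2 (WT_B6 replicate 1, 0.0572). It also ended that of Ift88 (any WT_B6 library or KO_B6 replicate 2, 0.0536 to 0.0876) and of Ift172 (WT_B6 replicates 1 and 4, KO_B6 replicates 2, 3 and 4, 0.0559 to 0.0844). Ift57 lost its call when any 1 of 5 libraries was left out, namely WT_B6 replicates 2 and 4, KO_B6 replicate 4 and Tg_FvB replicates 2 and 3 (0.0586 to 0.113). Mks1 lost it for any 1 of 9 libraries, which were the 3 WT_B6 and both WT_FvB libraries, KO_B6 replicates 1, 3 and 4 and Tg_FvB replicate 5 (0.0513 to 0.154). Some uncalled members gained a call instead. Ift81 and Kif7, at edgeR adjusted p 0.0573 and 0.0603 in the main fit, were called lower in some alternatives, but not in all. DESeq2 gave them adjusted p 0.0285 and 0.0216, and limma-voom 0.0431 and 0.0471. The knockouts and 2 of the 3 wild types share litters by the labels. With litter as a covariate 4 members were higher and 12 lower, and the calls of Ift22, Ift57, Ift88, Ift172, Bbs2, Tctn2, Mks1 and Dnah8 were lost, among others (edgeR adjusted p 0.0539 to 0.106). Tctn2 lost its call there at an adjusted p of 0.0566, with a log2 fold change of -0.31. In all, the litter fit called 16 of 49 members, against 34.5% of all genes, which is near the background. In the main fit 45.8% of all genes were called, so calls were lost over all genes too.

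Other genes of the same machinery, from lists counted without the members, were mixed. Over the 5 lists of transport, BBSome, transition zone, membrane and motile cilium genes, 19 of 96 tested genes were higher and 28 lower by edgeR, or 49%, near the 45.8% of all genes. Among 17 other transport subunits and motors, 1 rose and 7 fell in KO_B6 (median log2 fold change -0.10). Wdr19, an IFT-A core subunit, stood at 14.0, 13.2, 12.1 and 14.7 CPM in KO_B6, against 28.8, 30.3 and 29.5 CPM in WT_B6 (log2 fold change -1.13, SE 0.0908, edgeR adjusted p 2.11e-06). Ttc30b, an IFT-B subunit with near-identical copies and so uncertain, and Dync2li1, of the retrograde dynein, had log2 fold changes of -0.95 and -0.73. Of 7 other BBSome genes 2 rose (Mkks at 0.34, Rab3ip at 0.23) and 1 fell (Ccdc28b at -0.35), and of 17 other transition zone genes 2 rose and 3 fell, with Nek8 at 0.73, Rpgrip1l at -0.48 and Tmem231 at -0.26. Of 20 genes of the ciliary membrane and its trafficking 7 rose and 6 fell, with Pkd1 at 0.71 and Evc2 and Ccp110 both at 0.69. Of 35 tested among 49 other motile cilium genes 7 rose and 11 fell (median -0.18). Dnaic2, an outer arm intermediate chain, stood at 1.10, 0.656, 0.715 and 0.784 CPM in KO_B6, against 2.89, 2.90 and 3.00 CPM in WT_B6 (log2 fold change -1.86, SE 0.191, edgeR adjusted p 9.59e-06). Meig1 and Armc4 had log2 fold changes of -2.13 and 2.06 from at most 18 counts in any KO_B6 or WT_B6 library. Of 7 tested multiciliation regulators 2 rose, Myb at 0.80 and E2f4 at 0.40, and none fell. Proliferation markers moved with the genotype too: 7 of 8 rose, and their sum ran from 2754 to 3463 CPM in KO_B6 and from 2153 to 2281 CPM in WT_B6. Of 8 astrocyte markers 4 fell and none rose, of 12 progenitor markers 2 rose and 5 fell, of 8 oligodendrocyte markers 1 rose and 3 fell, and of 9 tested neuronal markers 1 rose and 2 fell. The part of these markers in the cilium gene values was not tested.

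**Figure D2:**
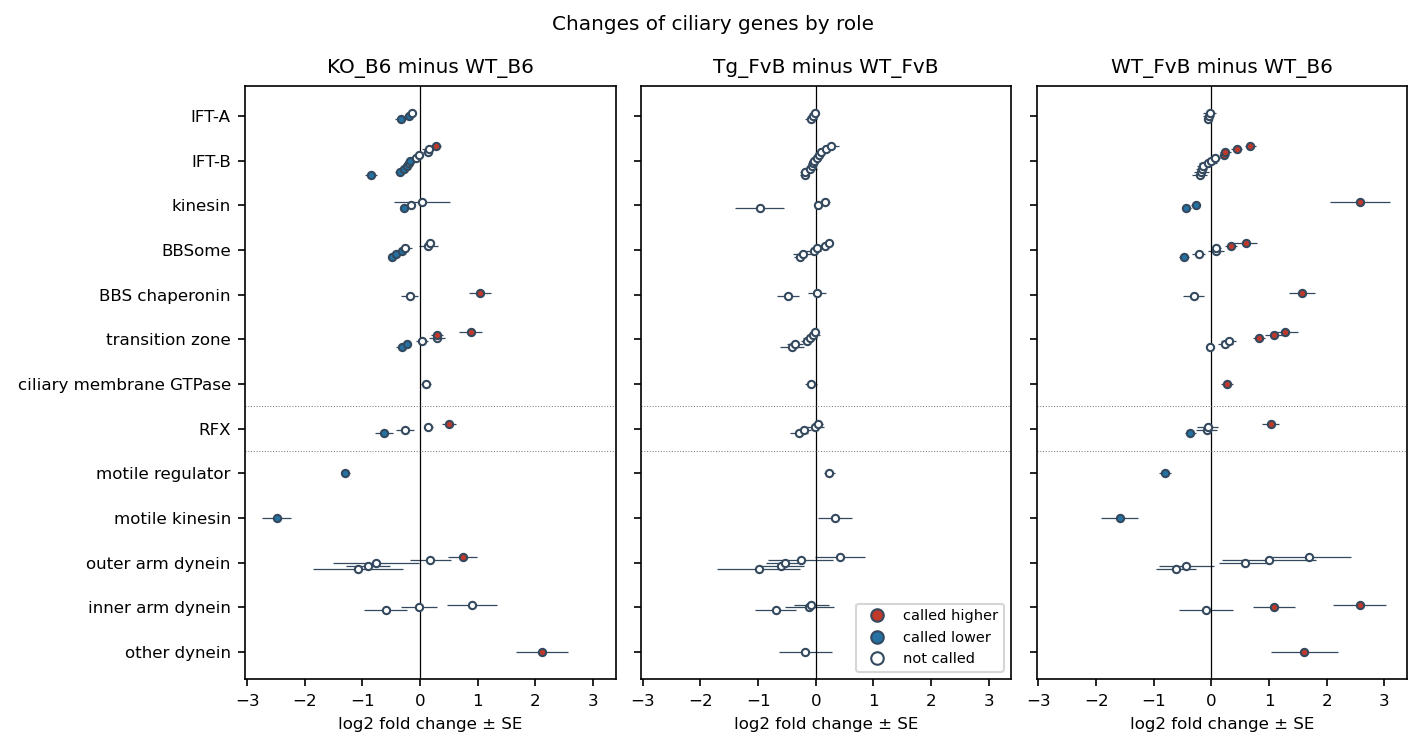
Log2 fold change with SE for tested members, by role, for KO_B6 minus WT_B6, Tg_FvB minus WT_FvB and WT_FvB minus WT_B6. Kif19a (-2.49) and Dnah14 (2.11) lie at the ends of the knockout panel, while the transgene panel runs from -0.99 to 0.42.

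With the Kat6b transgene, edgeR called 0 of 49 tested members, against 1.84% of all genes (0.681% higher and 1.16% lower), so the count is near the background and is not a result about cilium genes. DESeq2 and limma-voom called 0 as well, as did edgeR without the 2 Tg_FvB libraries headed as wild types. By the labels, Tg_FvB replicates 1 and 2 share litter 844 with both WT_FvB libraries. Replicates 3 to 6 are of litter 873, which holds no wild type, so transgene and litter are partly confounded. With litter as a covariate edgeR called 0 members and 0.0655% of all genes. The members' median log2 fold change was -0.07, with -0.04 for primary and -0.18 for motile cilium genes, and 0.01 for all genes. At an unadjusted p under 0.05 there were 9 of 49 members, against 18.3% of all genes, again near the background. Among these 9, Kif3a, Bbs9 and Foxj1 had higher values in Tg_FvB and Ift22, Kif17, Bbs1, Bbs12 and Tctn3 had lower ones. The groups did not overlap for 10.2% of members and 16% of all genes. Foxj1 ran from 24.0 to 31.9 CPM in Tg_FvB with a median of 28.5, against 23.8 and 24.7 CPM in WT_FvB, and the ranges overlapped (log2 fold change 0.24, SE 0.0937, edgeR adjusted p 0.203). Kif19a ran from 3.24 to 7.75 CPM with a median of 4.05 in Tg_FvB, against 3.45 and 3.74 CPM in WT_FvB (log2 fold change 0.33, SE 0.289, edgeR adjusted p 0.562). Bbs9 ran from 20.8 to 26.4 CPM with a median of 23.8 in Tg_FvB, against 19.9 and 20.7 CPM in WT_FvB, with no overlap (log2 fold change 0.23, SE 0.078, edgeR adjusted p 0.140).

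For several members Tg_FvB replicate 4, the shallowest library, stood at the top of its group. For others, Foxj1, Bbs9 and Kif3a among them, it stood at the bottom. Bbs12 was at 14.6 CPM there and at 6.92 to 8.97 CPM in the other 5 Tg_FvB libraries, against 13.4 and 12.2 CPM in WT_FvB. Foxj1 was at 24.0 CPM there and at 27.6 to 31.9 CPM in the other 5, against 23.8 and 24.7 CPM in WT_FvB. Without that replicate edgeR called 2 members higher (Bbs9 and Foxj1) and 6 lower (among them Kif17, Bbs1, Bbs12, Tctn3 and Nphp4), with log2 fold changes of 0.28 for Foxj1 (adjusted p 0.0348) and -0.64 for Bbs12 (adjusted p 0.00324). Calls over all genes rose as well, to 11.6% without that replicate, against 1.84% with it. Outside the members, the other cilium lists held 2 called genes of 96 (2.08%, near the 1.84% of all genes), both lower in Tg_FvB: Ahi1 of the transition zone (log2 fold change -0.34, edgeR adjusted p 0.0200) and Dnah7b (-0.999, edgeR adjusted p 0.0309), a heavy chain with near-identical copies and so uncertain. Of the marker lists, 4 of 8 astrocyte markers were lower in Tg_FvB, and 2 of 9 neuronal, 2 of 8 oligodendrocyte and 1 of 12 progenitor markers were higher, while none of 8 proliferation markers was called by edgeR. Their part in the cilium gene values was not tested.

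The wild types of the 2 backgrounds differed in many cilium genes. By edgeR 17 members were higher and 6 lower in WT_FvB than in WT_B6, or 46.9% of 49, against 48.9% of all genes, which is near the background. By direction 34.7% of members were higher, against 25.4% of all genes, and 12.2% were lower, against 23.5%. The groups did not overlap for 69.4% of members and 78.3% of all genes. Among primary cilium genes 13 rose and 3 fell of 34, and among motile cilium genes 3 rose and 2 fell of 11 tested. Kif17 stood at 5.32 and 5.24 CPM in WT_FvB, against 0.981, 0.782 and 0.902 CPM in WT_B6 (log2 fold change 2.58, SE 0.524, edgeR adjusted p 0.00116). In KO_B6 it ran from 0.680 to 1.03 CPM and in Tg_FvB from 0.825 to 5.38 CPM, so its level separated the wild types and spread widely among the transgenic libraries. Dnah10, an inner arm heavy chain, had a log2 fold change of 2.57 (SE 0.467, edgeR adjusted p 5.30e-04) from 29 and 39 counts in WT_FvB and 2 to 11 counts in WT_B6. Tctn3, which sits beside Tctn2 in the transition zone, stood at 36.0 and 33.5 CPM in WT_FvB, against 15.1, 17.2 and 16.5 CPM in WT_B6 (log2 fold change 1.09, SE 0.162, edgeR adjusted p 1.61e-04). Foxj1, at 23.8 and 24.7 CPM in WT_FvB, was lower than in WT_B6 by a log2 fold change of -0.80 (SE 0.105, edgeR adjusted p 7.85e-05). Kif19a was lower by -1.59 (SE 0.320, edgeR adjusted p 0.00110). Bbs12 (1.57), Nphp4 (1.27) and Rfx4 (1.03) were higher. Among the other cilium genes 4 transport subunits and motors rose and 3 fell of 17, 7 transition zone genes rose and 1 fell of 17, 6 membrane genes rose and 4 fell of 20, and 13 motile cilium genes rose and 5 fell of 35 tested. With the other BBSome genes that is 47.9% of 96, near the 48.9% of all genes. Marker genes moved with the background too. Of 8 proliferation markers 6 were higher in WT_FvB and none lower by edgeR, and of 8 astrocyte markers 6 were higher and none lower. Of 12 progenitor markers 1 was higher and 6 lower, of 8 oligodendrocyte markers 1 was higher and 5 lower, and of 9 neuronal markers none was higher and 4 were lower. Of the 4 tested ependymal and choroid plexus markers other than Foxj1, 2 were higher and none lower (median log2 fold change 0.88). Their part in the cilium gene values was not tested.

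The knockout and the background comparison share the WT_B6 libraries, so their values are only set side by side. For Foxj1 the log2 fold changes were -1.29 in KO_B6 and -0.80 in WT_FvB, each against WT_B6. Those of Kif19a were -2.49 in KO_B6 and -1.59 in WT_FvB, those of Bbs12 were 1.04 in KO_B6 and 1.57 in WT_FvB, and those of Nphp4 were 0.88 in KO_B6 and 1.27 in WT_FvB. For Ift46 they were -0.85 in KO_B6 and -0.17 in WT_FvB, and for Bbs1 they were -0.42 in KO_B6 and 0.34 in WT_FvB. Of the 23 background calls, 14 were kept in every alternative other than the summed one. Leaving out 1 library ended those of Ift57, Ift74, Kif7, Bbs1, Bbs5, Arl13b, Dnah1, Dnah14 and Rfx1, with edgeR adjusted p-values of 0.0505 to 0.310. WT_FvB replicate 1 or 2 was among the libraries whose loss ended each of these 9 calls.

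The effect of the knockout was also tested against the effect of the transgene, as the difference between the 2 log2 fold changes. By edgeR 9 members had a higher and 8 a lower log2 fold change in the knockout comparison, or 34.7% of 49, against 37.3% of all genes, which is near the background. By direction 18.4% were higher, against 19.6% of all genes, and 16.3% lower, against 17.8%. The difference for Foxj1 was -1.53 (SE 0.128, edgeR adjusted p 3.52e-05), with -1.29 in the knockout and 0.24 in the transgene comparison. That for Kif19a was -2.82 (SE 0.394, edgeR adjusted p 2.95e-04), with -2.49 in the knockout and 0.33 in the transgene comparison. Ift46 had a difference of -1.02 (SE 0.153, edgeR adjusted p 3.89e-04), with -0.85 in the knockout and 0.17 in the transgene comparison. Bbs12 differed by 1.53 (SE 0.267, edgeR adjusted p 8.03e-04), with 1.04 in the knockout and -0.49 in the transgene comparison. All 4 had values of opposite sign in the 2 comparisons, but the transgene values were not called. The comparison of loss with gain is also one between backgrounds, and the 2 cannot be told apart. Of the 17 calls, 7 were kept in every alternative other than the summed one. Leaving out 1 library ended those of Ift52, Ift88, Tctn3, Cc2d2a, Dnah8, Dnah10, Dnah14 and Rfx2, among others, with edgeR adjusted p-values of 0.0505 to 0.168, and WT_FvB replicate 1 or 2 was among the libraries in each case.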

How the data were processed

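Total RNA of neurospheres was made into 15 TruSeq libraries and read as 66 bp pairs on a NextSeq500, per the labels' protocols. The deposited files hold raw counts per gene with a gene length (the Length column, another deposited value), made by the authors with bcl2fastq and featureCounts on build mm10, per the submitters' processing notes. The aligner, its version, the annotation, counting settings and strandedness are not stated in the sources used here, so genes that overlap others are uncertain. Of the members, 33 share no exonic base with another gene in GENCODE, and 6 share over 5%. Unnamed entries (917, 0.450% to 0.545% of counts) were left out.

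Counts were tested with edgeR 4.0.16 (R 4.3.3) in 1 quasi-likelihood model of all 15 libraries with 1 coefficient per group and 11 residual degrees of freedom. TMM scaling was used, with filterByExpr at a minimum count of 10 (15261 genes tested, 11002 not) and Benjamini-Hochberg adjusted p under 0.05 as a call. CPM and RPKM use TMM-scaled totals, RPKM also the deposited length. SEs come from the coefficient and its F statistic. Alternatives were DESeq2 1.42.0, limma-voom (limma 3.58.1), other scaling, filters, covariates, sums of near-identical libraries and leaving out libraries. The method was tested on simulated data, with independent libraries and the same mean levels in both backgrounds. That test therefore does not cover near-identical libraries or the difference between the backgrounds. In the main fit, p-values set a difference between groups against the spread between libraries within groups, pooled over all groups. That spread may in part be technical, and depth sets counting error only.

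Members and lists were chosen with earlier results of these data known. All members could be named, and of each other cilium list up to 3 called genes with the largest absolute log2 fold change per comparison. Replicate numbers were not used to pair samples in the main fit. Correlations of same-numbered deviations were -0.024 to 0.081, which cannot decide whether samples were paired. Single values of some members are not reported here.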

Additional observations from a re-analysis of the deposited data

Results flagged for a closer look

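Of 94 sets of member values by group that were large enough to examine, 10 held a library set apart from its group. Its gap to the next library exceeded 0.829 of the group's range in KO_B6 or 0.625 in Tg_FvB. By chance about 1 in 20 sets would, if libraries were independent with normal spread. Some libraries were near identical, so that rate cannot judge these 10. In KO_B6 these were replicate 1 for Bbs7 (37.4 CPM, others 32.6 to 33.1) and Tctn3 (17.6 CPM, others 20.6 to 20.7), replicate 3 for Ift88 (10.3 CPM, others 11.2 to 11.3), and replicate 4 for Ift80 (41.3 CPM, others 36.6 to 37.0) and Kif3a (151 CPM, others 135 to 137). In Tg_FvB they were replicate 4 for Bbs5 (10.5 CPM, others 5.43 to 7.04), Bbs12 (14.6 CPM, others 6.92 to 8.97) and Dnah11 (1.27 CPM, others 0.192 to 0.417). Replicate 5 of Tg_FvB stood apart for Dnah5 (0.500 CPM, others 0.0440 to 0.146) and Kif19a (7.75 CPM, others 3.24 to 4.37).

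For 16 of the members reported the knockout effect differed from the transgene effect by edgeR, at an adjusted p under 0.05 for the difference of the log2 fold changes. The difference, knockout minus transgene, was below 0 for Kif19a (-2.82), Foxj1 (-1.53), Ift46 (-1.02), Bbs9 (-0.72), Rfx2 (-0.61), Kif3a (-0.44), Ift52 (-0.33) and Cc2d2a (-0.22). It was above 0 for Dnah14 (2.29), Dnah10 (1.59), Bbs12 (1.53), Nphp4 (1.29), Dnah8 (1.27), Rfx4 (0.70), Tctn3 (0.65) and Ift88 (0.45). Dnah10 and Tctn3 were not called in the knockout comparison itself (log2 fold changes 0.90 and 0.29), and none of the 16 was called in the transgene comparison.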

How the results depend on the processing

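Counts of called members were recomputed under each alternative, and none of the members' log2 fold changes that had been called turned its sign. As reported, 8 members were higher and 16 lower in KO_B6, 0 and 0 in Tg_FvB, 17 and 6 in WT_FvB against WT_B6, and 9 and 8 for the difference of effects. Other size factors, no filter, a minimum count of 30, DESeq2, limma-voom and leaving out both Tg_FvB libraries headed as wild type kept each count within 1.5 times. With litter as a covariate, 4 were higher in KO_B6, and the difference had 2 higher and 5 lower. Calls over all genes fell there too, to 34.5% from 45.8% for the knockout and to 18.8% from 37.3% for the difference. With only the 2 groups compared in the model, 12 were lower in WT_FvB. That fit called 30 of 46 tested members and 72.1% of all genes, against 48.9% of all genes in the main fit. With near-identical libraries summed the counts were 0 in every comparison, in a fit with 5 residual degrees of freedom that assumes the lone WT_B6 and WT_FvB samples vary like the other groups. Leaving out 1 library gave 4 to 9 higher and 14 to 21 lower in KO_B6, 0 to 2 and 0 to 6 in Tg_FvB, 11 to 18 and 4 to 6 in WT_FvB, and 3 to 11 and 5 to 10 for the difference. In Tg_FvB members were called only without Tg_FvB replicate 4 and with the block below.

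With a replicate block, 5 members were lower in Tg_FvB (among them Kif17, Bbs12, Tctn3 and Rfx3), where 10.3% of all genes were called, and the difference had 5 lower. The correlations of same-numbered libraries were -0.024, -0.011 and -0.011 in B6 and 0.081 and 0.003 in FvB. They cannot decide whether the numbers pair samples, since the wild types are near identical and FvB has only 2 of them. By the labels, same-numbered libraries share a litter, except those numbered 1 in B6. The background comparison could not be fitted with litter or block, nor the difference with 2 groups only. Dynein heavy chains, at 0 to 163 counts per library, carry the widest errors. The causes of these changes were not tested.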
